A study of Mus musculus with 9 samples.

Results

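The voltage-gated and transient receptor potential (TRP) ion channel genes were all genes whose symbol begins with Kcn, Cacna, Cacnb or Cacng, or is Scn, Hcn, Trpa, Trpc, Trpm or Trpv with a number. On the array they made up 140 genes read by 292 probe sets, of 18193 genes and 34945 probe sets that carry 1 gene symbol. Signals were measured on 9 mouse Affymetrix arrays, each from cells taken by laser capture microdissection, with 3 arrays per stage that the labels call biological replicates. The stages were embryonic day 8.5 (E8.5, neural crest cells as the neural tube closes), embryonic day 13.5 (E13.5, neural crest cells in the dorsal root ganglion) and postnatal day 90 (P90, adrenal medulla of adults aged 3 months). No genotype, strain, sex, treatment or number of animals per capture was given for any group, so p-values cover only the spread between these arrays. The submitters set out to follow DNA repair genes through neural crest development, and the channel genes were read from the same arrays.

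Cells of the neural crest migrate from the dorsal neural tube and form, among others, the sensory neurons and glia of the dorsal root ganglion and the chromaffin cells of the adrenal medulla. Both neurons and chromaffin cells are excitable: voltage-gated sodium channels carry the upstroke of the action potential, voltage-gated calcium channels couple depolarisation to release of transmitter or catecholamine, and potassium channels repolarise the membrane and set its resting potential. TRP channels are cation channels, several of which report heat, cold or irritants in sensory neurons. Pore-forming subunits carry the current, and auxiliary subunits alter their gating and delivery to the membrane.

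The labelled cell types were checked against marker genes, as signals summed over the markers with no empty value. The sum of 10 markers of neural crest and neural tube was 8930 to 10821 at E8.5, 2851 to 5391 at E13.5 and 777 to 942 at P90. Of these markers, Sox10 read 232, 299 and 315 at E8.5 and 394, 481 and 543 at E13.5. The mean of Snai2 was also higher at E13.5 than at E8.5 (485 against 405), and the means of all the others were lower. The 3 pan-neuronal markers with a value on every array summed to 282 to 552 at E8.5, 6439 to 11577 at E13.5 and 2936 to 3821 at P90. The 6 such chromaffin markers summed to 399 to 447 at E8.5, 1391 to 4003 at E13.5 and 12641 to 26701 at P90. At E13.5 most of this sum was Chga (742 to 1939) and Chgb (356 to 1727). Dbh, Pnmt and Slc18a1 read at most 97.7 there, and Ddc at most 158. Th, left out of the sum for an empty P90 value, read 633, 562 and 1239 at E13.5, against 111 to 127 at E8.5. Gata3 and Npy, also left out, read at most 85.5 at E13.5. The 5 sensory neuron markers with a value on every array summed to 262 to 419 at E8.5, 4474 to 6927 at E13.5 and 512 to 3213 at P90. Isl1 was the largest of these at E13.5 (3153 to 5244), and Ntrk2 and Runx3 also had their highest mean there. Ntrk3 stayed level, with means of 54, 49.6 and 54.8 at E8.5, E13.5 and P90. Prph had its highest mean at P90 (59.3, 94.6 and 107). Other cell types were also seen: 4 mesenchyme markers summed to 4473 to 13914 at E13.5, against 954 to 1764 at E8.5 and 1018 to 4585 at P90, and 4 epithelial markers to 903 to 2725 at E8.5, against at most 198 later. Cdh1, the epithelial marker left out for an empty value, was not lower at E13.5. It read 26.5, 414 and 447 at E8.5, 212 and 546 at E13.5, and at most 7.76 at P90. The part of these other cell types in the results was not tested. In bulk samples of this kind, fewer cells of a type and less RNA per cell cannot be told apart. Stage and tissue changed together here and cannot be told apart either.

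Single arrays stood apart from the rest of their stage. P90 replicate 1 had a chromaffin sum of 12641 where replicates 2 and 3 had 26701 and 25699, with signals of 633, 3749 and 3289 for Pnmt, the adrenaline-forming enzyme. Its endothelial sum, over 5 markers, was 4008 against 825 and 743. Its smooth muscle and mesenchyme sums were also the highest at P90, at 2339 and 4585 against at most 1047 and 1779. The array's Actb controls gave a log2 signal higher at the transcript's 3' end than at its 5' end by 6.69 on E13.5 replicate 2, a gap that widens as RNA breaks down, against 0.85 to 4.7 on the other 8 arrays. Some table cells were empty, for a reason not stated, and these were more frequent among channel probe sets (92 of 2628 cells, 3.50%) than in the whole table (1.98%). The E13.5 arrays held 68 of the 92 empty cells, the P90 arrays 19 and the E8.5 arrays 5. Of the 140 genes, 99 were bright enough and complete enough to be tested, and 41 were not. A gene could enter the test through a high signal at 1 stage only, so counts over the 99 describe the genes tested and not all 140.

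The first comparison asked how channel expression in the E13.5 ganglion differed from that in E8.5 neural crest. Of the 99 tested genes, 38 rose, 1 fell and 60 were not called (limma, Benjamini-Hochberg adjusted p under 0.05), where 16.5% of all 13748 genes tested were called, 9.27% of them as rising and 7.22% as falling. The median log2 change was 0.62, against 0.02 for all genes tested. Scn7a, Kcnmb2, Cacna2d1, Scn3b and Cacna2d2 rose most, with log2 changes of signal plus 16 from 5.0 to 5.83. The only gene that fell was Kcnk5, a pH-sensitive potassium leak channel. On the arrays with a value, every called gene had all of 1 stage above all of the other. Calls were made on these same values, and the share over all genes was not counted. Such gaps therefore add no support to the calls, here or in the later comparisons. Without any filter on low signals, 137 genes were tested, of which 37 rose and 1 fell. Without E13.5 replicate 3 the count of calls was 22 in place of 39, over 89 tested genes. Without E13.5 replicate 2 it was 37. Calls over all genes tested numbered 2267 with all arrays, 1363 without E13.5 replicate 3 and 2371 without E13.5 replicate 2. Without the filter they numbered 2058 of 17923.

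The second comparison set P90 adrenal medulla against E13.5 ganglion. Here 3 genes rose and 18 fell, with 9.48% of all genes tested called (3.54% rising, 5.94% falling), and the median log2 change was -0.21, against -0.05 for all genes. The genes that rose were Kcnk3 and Kcnk2, potassium leak channels, and Cacnb2, a calcium channel beta subunit. The largest falls were in Kcnmb4, Kcnip2, Scn3b, Kcnd1 and Scn7a, from -2.85 to -3.76 on the log2 scale. Of the 38 genes that rose between E8.5 and E13.5, 16 fell here, 20 were not called and 2 rose. These comparisons share the E13.5 arrays. The matching share over all genes was not counted, so these numbers only describe the genes listed. The count depended on single arrays: it was 27 (8 rose, 19 fell) without P90 replicate 1, 19 without E13.5 replicate 2, 11 without E13.5 replicate 1, 6 without E13.5 replicate 3, 13 without P90 replicate 2 and 10 without P90 replicate 3. It was 12 when only the arrays of these stages were fitted. Calls over all genes tested also moved, from 1303 with all arrays to 832 in that fit. They numbered 583 without E13.5 replicate 3 and 1703 without E13.5 replicate 2.

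The third comparison set P90 adrenal medulla against E8.5 neural crest. Here 18 genes rose and 3 fell (Kcnmb4, Cacng4 and Kcnk5), with 23.3% of all genes tested called, 10.9% rising and 12.5% falling. The median log2 change was 0.41, against 0.00 for all genes. Cacna2d1, Kcnk3, Kcnk2 and Kcnc4 rose most, by 4.29 to 6.02. Cacna1b was the only called gene whose arrays overlapped between these stages. The count was 27 (25 rose, 2 fell) without P90 replicate 1, 13 without E8.5 replicate 1, 12 without E8.5 replicate 2 and 12 without P90 replicate 2. Calls over all genes tested were then 3507, 2295, 1955 and 2093, against 3209 with all arrays.

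**Figure D1:**
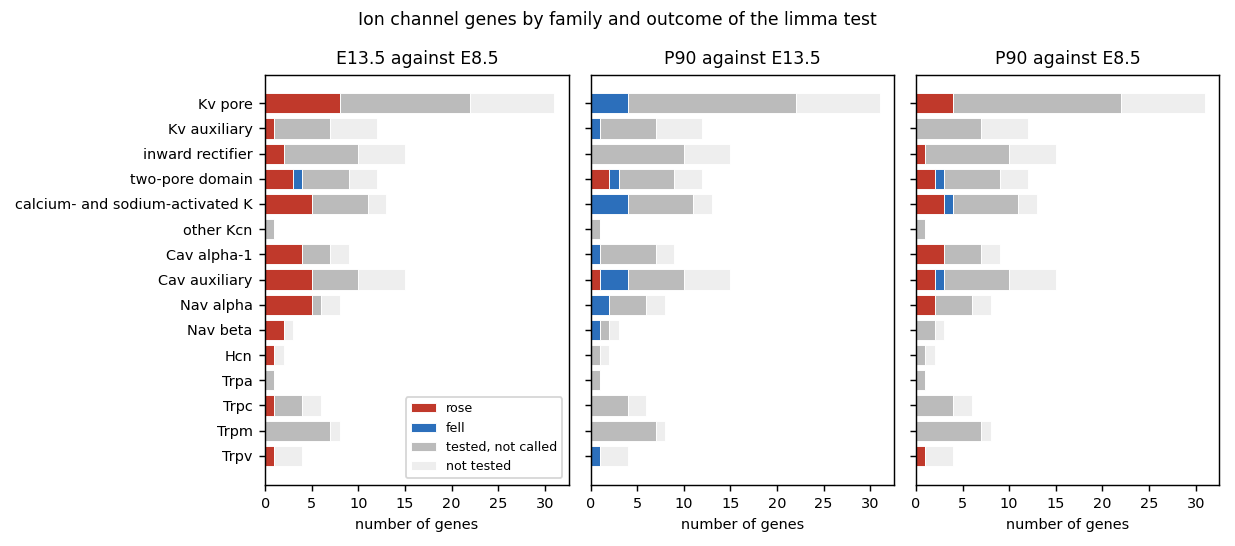
Number of ion channel genes per family (horizontal axis) that rose, fell, were tested but not called, or were not tested, in each of the 3 comparisons. Of the 38 genes that rose at E13.5 against E8.5, 19 are potassium channel genes, 9 calcium channel genes and 7 sodium channel genes, with Hcn3, Trpc1 and Trpv2 making up the rest.

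**Figure D2:**
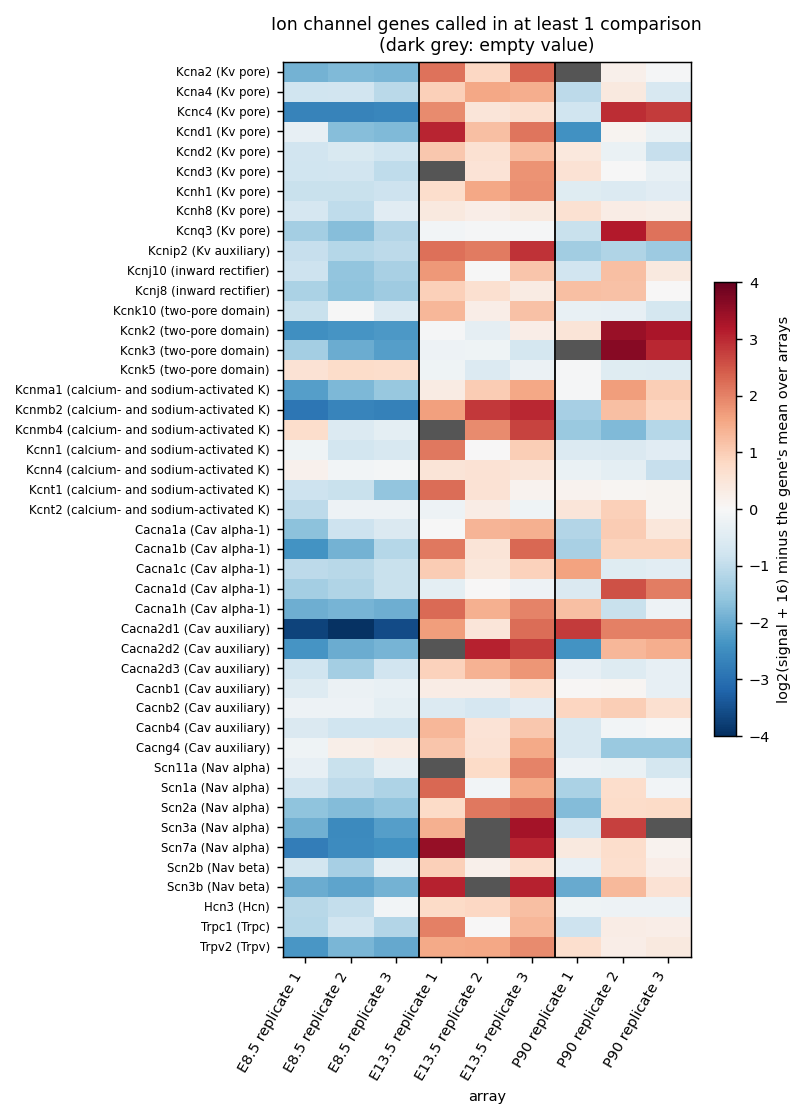
The 45 genes called in at least 1 comparison (rows, with their family) on the 9 arrays (columns). Colour is log2(signal + 16) minus the gene's mean over arrays, and dark grey marks an empty value. Most rows are lowest at E8.5, and P90 replicate 1 differs from P90 replicates 2 and 3 in Kcnq3, Kcnk2, Cacna1d and Kcnc4.

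Among sodium channels, 5 of 6 tested pore-forming alpha subunits and both tested beta subunits rose at E13.5 against E8.5. Scn7a encodes an atypical alpha subunit that senses extracellular sodium and is found in sensory neurons and glia. Its signals were 22.3, 29.3 and 32.3 at E8.5, 2891 and 2126 at E13.5 with replicate 2 empty, and 327, 407 and 272 at P90. All P90 arrays thus lay between the embryonic stages. It rose by 5.83 ± 0.38 (SE; adjusted p = 2.5e-05) at E13.5, fell by 2.85 from E13.5 to P90 (adjusted p = 0.001), and at P90 stood 2.99 ± 0.34 above E8.5 (adjusted p = 0.000142). Another Scn7a probe set gave 47.4, 46.7 and 45.9 at E8.5, 146, 50.9 and 65.8 at E13.5, and 17.2, 37.8 and 15.1 at P90, so at P90 it lay below E8.5. It took the gene's place when E13.5 replicate 1 or replicate 3 was left out, or when only genes with no empty value were kept. The rise at E13.5 was then not called (adjusted p 0.271 to 0.631; 1.36e-05 to 0.631 over all alternatives). The fall to P90 was lost without replicate 1 or 3 of E13.5 (adjusted p 0.0747 to 0.0773) and with a mean of probe sets (log2 -1.22, adjusted p = 0.332; 0.000556 to 0.332 over all alternatives). The P90 difference from E8.5 was lost under the same settings and with only genes without empty values, where it was -0.71 (adjusted p = 0.157; 4.6e-05 to 0.242 over all alternatives). The remaining probe set was empty on all 3 E13.5 arrays and read 8.92 to 31.8 at E8.5 and 130 to 244 at P90.

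Scn3a, an alpha subunit most abundant in developing neurons, read 10.5, 1 and 5.49 at E8.5 (1 is the lowest value in the table), 249 and 979 at E13.5, and 42.2 and 640 at P90. Its log2 change was 4.59 ± 0.89 (adjusted p = 0.00701) at E13.5 and 3.20 ± 0.89 (adjusted p = 0.0288) at P90, both against E8.5. The latter call was lost on removal of any E8.5 array (adjusted p 0.0731 to 0.0939; 0.012 to 0.0939 over all alternatives), and it could not be tested without replicate 1 or 2 of P90, or replicate 1 or 3 of E13.5, where only 1 value of the stage was left. Scn2a, its neighbour on the chromosome among protein-coding genes, gave 6.78, 4.72 and 7.11 at E8.5, 101, 285 and 313 at E13.5, and 5.02, 100 and 102 at P90. It rose by 3.35 ± 0.60 at E13.5 (adjusted p = 0.00282). P90 replicate 1 alone stayed in the E8.5 range, and without it Scn2a stood 2.40 above E8.5 at P90 (adjusted p = 0.00132, against 0.0823 with it; 0.00132 to 0.271 over all alternatives). Scn1a, another neuronal alpha subunit, rose from 14.1, 8.79 and 5.5 to 232, 30.9 and 128 (log2 2.24 ± 0.58, adjusted p = 0.0209), a call that was lost on removal of any E8.5 array or of replicate 1 or 3 of E13.5 (adjusted p 0.0548 to 0.0835; 0.00219 to 0.0835 over all alternatives).

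Scn8a, the main alpha subunit of mature axons, was not called by its brightest probe set in any comparison, at 201, 67.8 and 64.5 for E8.5, 316, 231 and 282 for E13.5 and 22.8, 326 and 200 for P90. Of its other probe sets, 1 passed the test as higher at E13.5 than at E8.5 (log2 1.48, adjusted p = 0.0165, with each probe set tested on its own; 0.0165 to 0.483 over all alternatives). Without P90 replicate 1 the brightest probe set was also called in that comparison (adjusted p = 0.0389). Scn11a, an alpha subunit of pain-sensing neurons, read 32.4, 17.3 and 31.9 at E8.5, 88.1 and 226 at E13.5, and 37.4, 34.7 and 21.2 at P90. It rose by 1.90 ± 0.38 (adjusted p = 0.00652) and then fell by 1.77 (adjusted p = 0.0144), and the fall was lost without P90 replicate 3 (adjusted p = 0.0611; 0.0087 to 0.0611 over all alternatives).

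The best-known sensory neuron sodium channels were empty or dim at E13.5 and were not tested. For Scn9a, an alpha subunit that amplifies small depolarisations in pain-sensing neurons, 4 of 5 probe sets were empty on all 3 E13.5 arrays. The brightest of these read 16.9, 19.8 and 24.1 at E8.5 and 13.6, 87.6 and 64.2 at P90. All 4 were highest on P90 replicates 2 and 3. The remaining Scn9a probe set differed, with 13.8, 11.8 and 17.8 at E8.5, 18.1, 28.9 and 28.6 at E13.5, and 14.8, 9.73 and 7.08 at P90, so it was highest at E13.5 and lowest on P90 replicates 2 and 3. Scn10a, the tetrodotoxin-resistant channel of the same neurons, had 1 probe set, empty on all 3 E13.5 arrays, with 7.46, 4.92 and 6.73 at E8.5 and 6.97, 25.1 and 16.7 at P90. Among its arrays with a value, Scn10a was highest on P90 replicates 2 and 3.

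The beta subunits, which modify gating and tether the channel to cell adhesion molecules, also rose. Scn3b gave 71.6, 62.9 and 75.6 at E8.5, 2862 and 2878 at E13.5 with replicate 2 empty, and 69.4, 821 and 493 at P90. It rose by 5.07 ± 0.78 (adjusted p = 0.00151) and fell by 3.12 (adjusted p = 0.0298) from E13.5 to P90. The fall was not called on removal of any E8.5 array or P90 replicate 3 (adjusted p 0.0507 to 0.0562; 0.0102 to 0.102 over all alternatives). Without P90 replicate 1, whose Scn3b signal was in the E8.5 range, the fall was 2.15 (adjusted p = 0.0102) and P90 stood 2.93 above E8.5 (adjusted p = 0.000421). Scn2b rose from a mean of 79.7 ± 31.3 to 236 ± 61.4 (SD, n = 3 each; log2 1.42 ± 0.38, adjusted p = 0.0241), and was lost without replicate 1 or 2 of E8.5 or replicate 1 or 3 of E13.5 (adjusted p 0.0601 to 0.131; 0.0125 to 0.131 over all alternatives). Both other tested Scn2b probe sets, on their own, were not called in that comparison (log2 0.14 and 0.62, adjusted p = 0.829 and 0.37). A mean of probe sets also ended the Scn2b call (log2 0.72, adjusted p = 0.0972). Scn4b was not tested, and its highest signal, 193, was on P90 replicate 1, against 24.4 and 23.3 on the other P90 arrays.

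**Figure D3:**
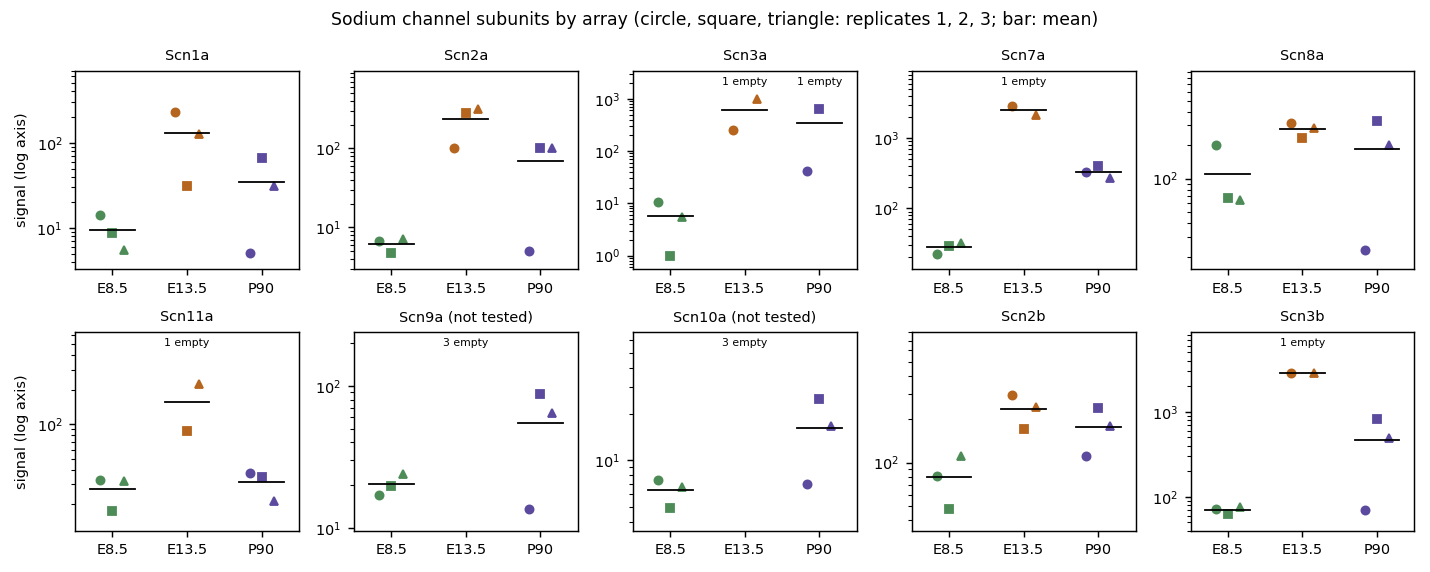
Signals (log axis) of the sodium channel subunits on each array, by stage. Circles, squares and triangles are replicates 1, 2 and 3, bars are arithmetic means, and the number of empty values is printed above a stage. Scn7a, Scn3a and Scn3b show the widest gaps between E8.5 and E13.5, and the plotted probe sets of Scn9a and Scn10a have no value at E13.5.

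Calcium channel pores differed in when they were high. Of 7 tested alpha-1 subunits, 4 rose at E13.5 against E8.5, namely Cacna1h, Cacna1b, Cacna1a and Cacna1c. Cacna1h, a low-threshold T-type channel of sensory neurons, read 5.14, 6.17 and 5.08 at E8.5, 371, 201 and 305 at E13.5, and 172, 27.9 and 54.3 at P90. It rose by 3.80 ± 0.45 (adjusted p = 0.00027), fell by 1.84 (adjusted p = 0.0239) and remained 1.96 ± 0.45 above E8.5 at P90 (adjusted p = 0.00876). Its highest P90 signal was on replicate 1, without which the fall was 2.43 (adjusted p = 0.00071) and P90 stood 1.37 above E8.5 (adjusted p = 0.00902). The fall was not called without replicate 1 or 3 of E13.5 or replicate 2 or 3 of P90 (adjusted p 0.0707 to 0.105; 0.00071 to 0.105 over all alternatives).

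Cacna1b, the N-type channel of presynaptic terminals, gave 15.1, 28.1 and 58.4 at E8.5, 690, 215 and 784 at E13.5, and 50.7, 285 and 287 at P90. It rose by 3.44 ± 0.64 (adjusted p = 0.00364), and this call was kept under every alternative. Its P90 difference from E8.5 of 1.97 ± 0.64 (adjusted p = 0.0461) was lost on removal of any E8.5 array, E13.5 replicate 3, P90 replicate 2 or P90 replicate 3 (adjusted p 0.0554 to 0.165; 0.00387 to 0.165 over all alternatives). Without P90 replicate 1, which overlapped the E8.5 arrays, it was 2.69 (adjusted p = 0.00387). A further 2 Cacna1b probe sets were empty on all 3 E13.5 arrays, and read at most 46.6 at E8.5 and 12 to 472 at P90.

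Cacna1a, the P/Q-type channel of nerve terminals, rose from 73.3, 141 and 168 to 256, 691 and 721 (log2 1.93 ± 0.59, adjusted p = 0.0457), close to the threshold. The call was lost on removal of any E8.5 array, replicate 2 or 3 of E13.5, or P90 replicate 3 (adjusted p 0.0604 to 0.167; 0.00353 to 0.167 over all alternatives). At P90 its signals were 107, 548 and 363. Cacna1c, the L-type channel of heart and smooth muscle that is also found in neurons, rose from 36.3, 34.4 and 43.4 to 204, 132 and 189 (log2 1.81 ± 0.49, adjusted p = 0.0258), lost on removal of any E8.5 array, replicate 1 or 3 of E13.5 or P90 replicate 3 (adjusted p 0.0622 to 0.283; 0.000524 to 0.283 over all alternatives). At P90 it read 319, 61.7 and 64.6, highest on the replicate with the lowest chromaffin sum. Sums for endothelium, smooth muscle, skeletal and cardiac muscle, mesenchyme and macrophages were all highest on that replicate among the P90 arrays. Without that replicate Cacna1c fell by 1.25 from E13.5 (adjusted p = 0.0179, against 0.592 with it; 0.0179 to 0.917 over all alternatives). The part of other cells in this was not tested. Another Cacna1c probe set read 43, 49 and 45.6 at E8.5, 202, 73.3 and 132 at E13.5, and 584, 50.7 and 25 at P90. Tested on its own, that probe set was not called at E13.5 against E8.5 (log2 1.2, adjusted p = 0.373). It stood for the gene without P90 replicate 3.

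Cacna1d is the L-type channel that sustains pacemaking in chromaffin cells. Its signals were 39.5, 45.9 and 60.8 at E8.5, 91.4, 126 and 107 at E13.5, and 78, 804 and 573 at P90. P90 replicates 2 and 3 were above every other array, whereas P90 replicate 1 was below the E13.5 arrays. It stood 2.48 ± 0.64 above E8.5 at P90 (adjusted p = 0.0154), which was lost without replicate 1 or 2 of E8.5 or replicate 2 or 3 of P90 (adjusted p 0.0553 to 0.0688; 2.42e-05 to 0.0688 over all alternatives). Against E13.5 the P90 difference was not called with all arrays (adjusted p = 0.187) and was 2.49 without P90 replicate 1 (adjusted p = 0.000676). The remaining alpha-1 genes were Cacna1f and Cacna1g, tested and not called, and Cacna1e and Cacna1s, not tested, with highest signals of 30.4 and 21.1.

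Among the auxiliary calcium channel subunits, 5 of 10 tested genes rose at E13.5. Cacna2d1, the alpha-2-delta subunit to which gabapentin binds, brings channels to the membrane. It read 10.2, 5.77 and 12.4 at E8.5, 1075, 463 and 1591 at E13.5, and 2340, 1356 and 1348 at P90. It rose by 5.22 ± 0.46 (adjusted p = 7.29e-05) at E13.5 and by 6.02 ± 0.46 at P90 (adjusted p = 6.46e-06), both against E8.5, and both calls were kept under every alternative. All 3 of its other tested probe sets were also lowest at E8.5 in their mean.

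Cacna2d2, a related subunit, gave 28.9, 41.7 and 47.1 at E8.5, 1935 and 1545 at E13.5 with replicate 1 empty, and 27.8, 562 and 610 at P90. It rose by 5.0 ± 0.94 (adjusted p = 0.00468). A dimmer probe set of the gene showed no such rise, at 47.4, 33.3 and 35.2 and then 27.4 and 35.9, and took its place without E13.5 replicate 3 (log2 -0.19, adjusted p = 0.707; 2.4e-05 to 0.707 over all alternatives). The P90 difference from E8.5 was 2.20 ± 0.94 and not called (adjusted p = 0.0864). It was 3.46 without P90 replicate 1 (adjusted p = 9.29e-05), and -0.60 for the dimmer probe set. Cacna2d3 rose from a mean of 9.52 ± 5.35 to 114 ± 37.4 (SD, n = 3 each; log2 2.33 ± 0.27, adjusted p = 0.000238) and fell by 1.75 to P90 (adjusted p = 0.00181). Only its E13.5 arrays exceeded the filter level, so it could not be tested once 1 of them was left out.

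The cytoplasmic beta subunits differed in pattern. Cacnb4 rose by 1.72 ± 0.27 (adjusted p = 0.00147) at E13.5 and fell by 1.24 (adjusted p = 0.0143) to P90, the fall being lost without E13.5 replicate 3 (adjusted p = 0.0706; 0.0044 to 0.0706 over all alternatives). Cacnb1 rose by 0.76 ± 0.23 at E13.5 (adjusted p = 0.0404; 0.0128 to 0.149, with 6 of 9 left-out arrays ending the call). Cacnb2, in contrast, was 29.5, 29.4 and 24.4 at E8.5, 20, 16.8 and 22.6 at E13.5, and 80.2, 89 and 65.9 at P90, and its 3 P90 arrays lay together. It rose by 1.40 ± 0.21 (adjusted p = 0.00171) from E13.5 and by 1.10 ± 0.21 (adjusted p = 0.00313) from E8.5, with both calls kept under the 20 alternatives that could test them (the stricter filter dropped the gene). Cacnb2 is thus the 1 gene of the 3 that rose from E13.5 to P90 in which P90 replicate 1 was complete and close to the other P90 arrays. Cacng4, better known as an auxiliary subunit of AMPA glutamate receptors, read 89.6, 124 and 134, then 241, 159 and 325, then 60.4, 26.1 and 26. It fell by 2.27 (adjusted p = 0.00192) from E13.5 and by 1.34 (adjusted p = 0.0166) from E8.5 to P90. The latter was lost without replicate 2 or 3 of E8.5 or replicate 2 or 3 of P90 (adjusted p 0.0663 to 0.079, and 0.00548 to 0.0912 over all alternatives). A mean of probe sets also ended it (log2 -0.62, adjusted p = 0.0912). Another Cacng4 probe set, tested on its own, was not called at P90 against E13.5 (log2 -0.46, adjusted p = 0.462) or E8.5 (log2 0.1, adjusted p = 0.859).

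Genes with a Kcn symbol were the most numerous, with 60 tested, of which 19 rose and 1 fell at E13.5 against E8.5. The symbol rule also took in Kcnq1ot1, a long noncoding RNA, and Kcnmb4os1, an opposite-strand transcript, which are not channel genes. Both are among the 60 and neither was called in any comparison (limma). Among 22 tested pore subunits of voltage-gated potassium channels, 8 rose. Kcna2, a delayed rectifier placed beside the nodes of myelinated axons, read 56.2, 62.1 and 59.5 at E8.5, 1190, 455 and 1310 at E13.5, and 293 and 240 at P90 with replicate 1 empty. It rose by 3.60 ± 0.43 (adjusted p = 0.000364) and remained 1.90 ± 0.48 above E8.5 at P90 (adjusted p = 0.0155). A second Kcna2 probe set moved alike, at 12.1, 10.9 and 10.8, then 469, 411 and 646, then 16.7, 81.1 and 52. Both others did not, at 93.3 to 122 and 35.4 to 52.5 at E8.5 against 106 to 173 and 31.6 to 48.8 at E13.5. The brighter of these stood for the gene without replicate 2 or 3 of P90, and the E13.5 call was then lost (adjusted p 0.588 to 0.611; 6.71e-05 to 0.611 over all alternatives). The P90 call against E8.5 was lost on removal of any E8.5 array, P90 replicate 2 or P90 replicate 3 (adjusted p 0.0512 to 0.379; 0.00142 to 0.379 over all alternatives). Against E13.5, P90 was lower by 1.69, not called with all arrays (adjusted p = 0.052), and called without P90 replicate 1 (adjusted p = 0.0397) or E13.5 replicate 2 (adjusted p = 0.00385).

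Kcnc4, a fast-deactivating Shaw-type channel, gave 13.5, 13.3 and 15 at E8.5, 674, 248 and 279 at E13.5, and 91.6, 1423 and 1286 at P90. It rose by 3.66 ± 0.82 (adjusted p = 0.00966) at E13.5 and by 4.29 ± 0.82 at P90 (adjusted p = 0.00294), both against E8.5. The P90 arrays lay on both sides of the E13.5 arrays, and without P90 replicate 1 Kcnc4 was higher at P90 than at E13.5 by 1.86 (adjusted p = 0.0175).

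The Kcnd genes encode the A-type channels that delay firing, and Kcnip2 encodes a calcium-binding partner that increases their current. Kcnd1 read 180, 59.4 and 55.9 at E8.5, 2008, 548 and 1063 at E13.5, and 29.9, 249 and 188 at P90. It rose by 3.39 ± 0.69 (adjusted p = 0.00593) and fell by 2.98 (adjusted p = 0.0179), the fall being lost without replicate 1 or 3 of E13.5 (adjusted p 0.0589 to 0.0799; 0.011 to 0.0799 over all alternatives). Kcnip2 read 11.5, 8.06 and 9.27 at E8.5, 228, 206 and 371 at E13.5, and 3.95, 6.61 and 3.28 at P90. This gene was high at E13.5 only among the stages measured, where it rose by 3.43 ± 0.25 (adjusted p = 2.55e-05) and then fell by 3.75 (adjusted p = 4.59e-05). Only its 3 E13.5 arrays exceeded the filter level, so it could not be tested once 1 of them was left out, and both calls were kept under the other 18 alternatives. Kcnd2 rose by 1.69 ± 0.31 and Kcnd3 by 2.03 ± 0.39 at E13.5 (adjusted p = 0.00354 and 0.00493). Kcnd2 then fell by 1.22 (adjusted p = 0.0307), which was lost on removal of any array other than E13.5 replicate 2 and P90 replicate 1 (adjusted p 0.0511 to 0.147; 0.00427 to 0.147 over all alternatives).

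Kcnh1, an ether-à-go-go channel, read 29.9, 29.9 and 32.4, then 125, 237 and 291, then 45.8, 42.6 and 46.4. It rose by 2.25 ± 0.30 (adjusted p = 0.0005) and fell by 1.87 (adjusted p = 0.00238), both kept under every alternative. Kcna4, an A-type channel of small sensory neurons, likewise rose by 2.20 ± 0.34 (adjusted p = 0.00128) and fell by 1.75 (adjusted p = 0.00727), also kept throughout. Its other tested probe set, on its own, was not called in either comparison (log2 0.58 and 0.2, adjusted p = 0.142 and 0.74). That probe set was called as higher at P90 than at E8.5 (log2 0.78, adjusted p = 0.0415). Kcnh8 rose by 1.06 ± 0.24 at E13.5 (adjusted p = 0.0104; 0.0688 without E8.5 replicate 2, and 0.00744 to 0.0688 over all alternatives) and was 1.09 ± 0.24 above E8.5 at P90 (adjusted p = 0.00659).

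Kcnq3 encodes a subunit of the M-current, which restrains repetitive firing. It read 17.9, 11 and 22.4 at E8.5, 64.3, 68.3 and 68.3 at E13.5, and 31.3, 762 and 375 at P90. Every E13.5 array was above every E8.5 array, but the change of 1.34 was not called with all arrays (adjusted p = 0.283) and was called without P90 replicate 1 (adjusted p = 0.00835) or with only these stages fitted (adjusted p = 0.00427). At P90 it stood 2.89 ± 0.76 above E8.5 (adjusted p = 0.0166), lost without replicate 1 or 2 of E8.5 or replicate 2 or 3 of P90 (adjusted p 0.0564 to 0.0722; 1.12e-05 to 0.0722 over all alternatives). Without P90 replicate 1 it stood 4.07 above E8.5 (adjusted p = 1.12e-05) and 2.73 above E13.5 (adjusted p = 0.000471, against 0.274 with it). Another Kcnq3 probe set, tested on its own with all arrays, was not called at P90 against E8.5 (log2 0.65, adjusted p = 0.152).

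Other voltage-gated potassium channels among the check genes were not called by their brightest probe set. Kcna1 read 127 to 133 at E8.5, 192 to 341 at E13.5 and 150 to 289 at P90, while both other tested probe sets of this axonal channel ran from at most 112 at E8.5 to 197 to 1255 at E13.5, where 1 value was empty. With each probe set tested on its own, Kcna1 was called as higher at E13.5 (log2 4.21, adjusted p = 0.00886; 0.00402 to 0.306 over all alternatives). Kcnc1, a fast Shaw-type channel, read 111 to 194, 132 to 165 and 173 to 230 at the 3 stages. Its log2 change of 0.02 at E13.5 changed sign between settings, and another probe set was called as higher (log2 1.78, adjusted p = 0.0105; 0.0105 to 0.991 over all alternatives). Kcnh2, the channel of the cardiac rapid delayed rectifier, read 66 to 315, 151 to 514 and 62.2 to 302. Kcnip4, another A-type channel partner, read 5.71 to 42.7, 23.4 to 37.6 and 32.3 to 84.7.

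The calcium-activated BK channel consists of a pore, Kcnma1, and beta subunits that set its calcium sensitivity and inactivation. Kcnma1 read 10.5, 19.7 and 26.8 at E8.5, 139, 235 and 340 at E13.5, and 104, 377 and 226 at P90. It rose by 2.80 ± 0.45 at E13.5 (adjusted p = 0.0015) and by 2.71 ± 0.45 at P90 (adjusted p = 0.00131), both against E8.5 and kept under every alternative. By this probe set its P90 and E13.5 arrays overlapped (log2 -0.09, adjusted p = 0.95). Another Kcnma1 probe set read 33.3, 52.3 and 73.7 at E13.5 against 747 and 395 at P90, with P90 replicate 1 empty, and was called as higher at P90 (log2 3.06, adjusted p = 0.000893; 0.000893 to 0.968 over all alternatives).

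The beta subunits parted at P90. Kcnmb2, which gives BK channels fast inactivation and is known from chromaffin cells, read 31.7, 40.1 and 37.5 at E8.5, 1072, 2478 and 2856 at E13.5, and 124, 801 and 623 at P90. It rose by 5.24 ± 0.62 (adjusted p = 0.00026) and at P90 was still 3.00 ± 0.62 above E8.5 (adjusted p = 0.00466), or 3.79 without P90 replicate 1 (adjusted p = 0.000136). Its fall of 2.25 from E13.5 to P90 (adjusted p = 0.0419) was lost on removal of any array other than E13.5 replicate 1 and P90 replicate 2 (adjusted p 0.0599 to 0.183; 0.0155 to 0.183 over all alternatives). Kcnmb4, the neuronal beta subunit, read 311, 120 and 138 at E8.5, 728 and 1288 at E13.5, and 55.1, 43.3 and 74.9 at P90. It rose by 2.37 ± 0.47 (adjusted p = 0.00619) and then fell by 3.76 (adjusted p = 0.000729). Both calls were kept under the 18 alternatives that could test them, which do not include leaving out E13.5 replicate 2 or 3 or keeping only genes with no empty value. It thus ended below its E8.5 level, by 1.39 (adjusted p = 0.0364), a call lost on removal of any E8.5 or P90 array (adjusted p 0.0511 to 0.137; 0.0157 to 0.137 over all alternatives).

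Of the other calcium- and sodium-activated channels, Kcnn1, a small-conductance channel of the afterhyperpolarisation, rose by 1.55 ± 0.43 (adjusted p = 0.0302) and fell by 1.56 (adjusted p = 0.0433). The rise was lost on removal of any E8.5 array or replicate 1 or 3 of E13.5 (adjusted p 0.0529 to 0.117; 0.00234 to 0.117 over all alternatives), and the fall on removal of any array other than E13.5 replicate 2 (adjusted p 0.0603 to 0.143; 0.00342 to 0.143 over all alternatives). Kcnt1, a sodium-activated channel, rose from 65.8, 63.5 and 32.9 to 681, 204 and 147 (log2 2.1 ± 0.48, adjusted p = 0.0108), and was lost without E8.5 replicate 3 (adjusted p = 0.059; 0.00431 to 0.059 over all alternatives). Both remaining calls in this family were close to the threshold. Kcnn4, an intermediate-conductance channel, fell by 1.05 from E13.5 to P90 (adjusted p = 0.0431; 0.0258 to 0.17 over all alternatives, with 7 of 9 left-out arrays ending the call). Kcnt2, a relative of Kcnt1, was 0.99 ± 0.32 higher at P90 than at E8.5 (adjusted p = 0.0467; 0.035 to 0.18, with 6 of 9 left-out arrays ending it). Kcnn2 was not called, and its highest signal, 443, was on P90 replicate 1, against 66.8 and 68.4 on the other P90 arrays. Kcnn3 was not tested, with signals of at most 4.43.

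The potassium leak channels of the K2P family (Kcnk genes), which hold the resting potential, contained both genes with the largest rises from E13.5 to P90. Kcnk3, an acid-sensitive channel described in chromaffin and adrenal cortex cells, read 14.7, 3.94 and 1 at E8.5, 52.5, 53.8 and 32.3 at E13.5, and 962 and 628 at P90 with replicate 1 empty. It rose by 1.49 ± 0.32 at E13.5 (adjusted p = 0.00901), by 3.69 ± 0.35 from E13.5 to P90 (adjusted p = 0.000164) and by 5.18 ± 0.35 from E8.5 to P90 (adjusted p = 6.27e-06). The first of these was lost without replicate 2 or 3 of E8.5 (adjusted p 0.0515 to 0.0552; 0.00508 to 0.0666 over all alternatives), and both others rest on 2 P90 arrays and were kept where they could be tested. Of 8 adrenal cortex markers, 4 (Star, Cyp11b1, Cyp21a1 and Hsd3b1) were empty on all P90 arrays and give no reading. The remaining 4 differed among themselves. Cyp11a1, the first enzyme of steroid synthesis, read 73.2, 26.2 and 16.3 at P90, against 26.3 to 28.7 at E8.5 and 28.7 to 41 at E13.5. Nr5a1, a transcription factor of steroid-forming cells, read 445 and 318 at P90 with replicate 1 empty, above 29.2 to 55.2 at E8.5 and 177 to 241 at E13.5, so that like Kcnk3 it was highest at P90. Mc2r, the receptor for corticotropin, read 40.3 and 56 at P90 with replicate 1 empty, above 21.4 to 35.3 at E8.5 and above 6.75 and 22.4 at E13.5. Cyp11b2, which forms aldosterone, read 35.5 and 48.3 at P90 and overlapped both other stages. The part of cortex cells in the Kcnk3 rise was not tested.

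Kcnk2, a mechanically gated channel, read 14.9, 17.1 and 18.8 at E8.5, 148, 115 and 190 at E13.5, and 224, 1861 and 1618 at P90. Its stages did not overlap, but P90 replicate 1 was only slightly above E13.5. It rose by 2.32 ± 0.64 at E13.5 (adjusted p = 0.0278), by 2.46 ± 0.64 to P90 (adjusted p = 0.0314) and by 4.78 ± 0.64 from E8.5 to P90 (adjusted p = 0.000296), the last kept under every alternative. The rise at E13.5 was lost on removal of any E8.5 array or replicate 1 or 3 of E13.5 (adjusted p 0.0553 to 0.105; 0.000216 to 0.135 over all alternatives). The rise from E13.5 to P90 was lost on removal of any array other than P90 replicate 1 (adjusted p 0.0537 to 0.128), and was 3.41 without that array (adjusted p = 0.000125; 0.000125 to 0.128 over all alternatives).

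Kcnk5 ran the other way, with 39.8, 45.6 and 44.1 at E8.5, 17, 9.65 and 15.6 at E13.5, and 20, 10.3 and 9.73 at P90. It fell by 0.98 (adjusted p = 0.00821) to E13.5, and its P90 level was lower than E8.5 by 1.03 (adjusted p = 0.00469), both calls kept under the 17 alternatives that could test it, which do not include leaving out an E8.5 array or the stricter filter. Signals after E8.5 were below the filter level of 26.06. Kcnk10, a close relative of Kcnk2, rose by 1.42 ± 0.33 (adjusted p = 0.0125; lost without replicate 1 or 3 of E8.5 or E13.5 replicate 3, adjusted p 0.0503 to 0.0601, and 0.00262 to 0.0601 over all alternatives). It then fell by 1.37 (adjusted p = 0.0226; lost without replicate 1 or 3 of E13.5 or replicate 2 or 3 of P90, adjusted p 0.0602 to 0.116, and 0.00453 to 0.116 over all alternatives). Kcnk1 was not called and read 75 to 142 over all 9 arrays.

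**Figure D4:**
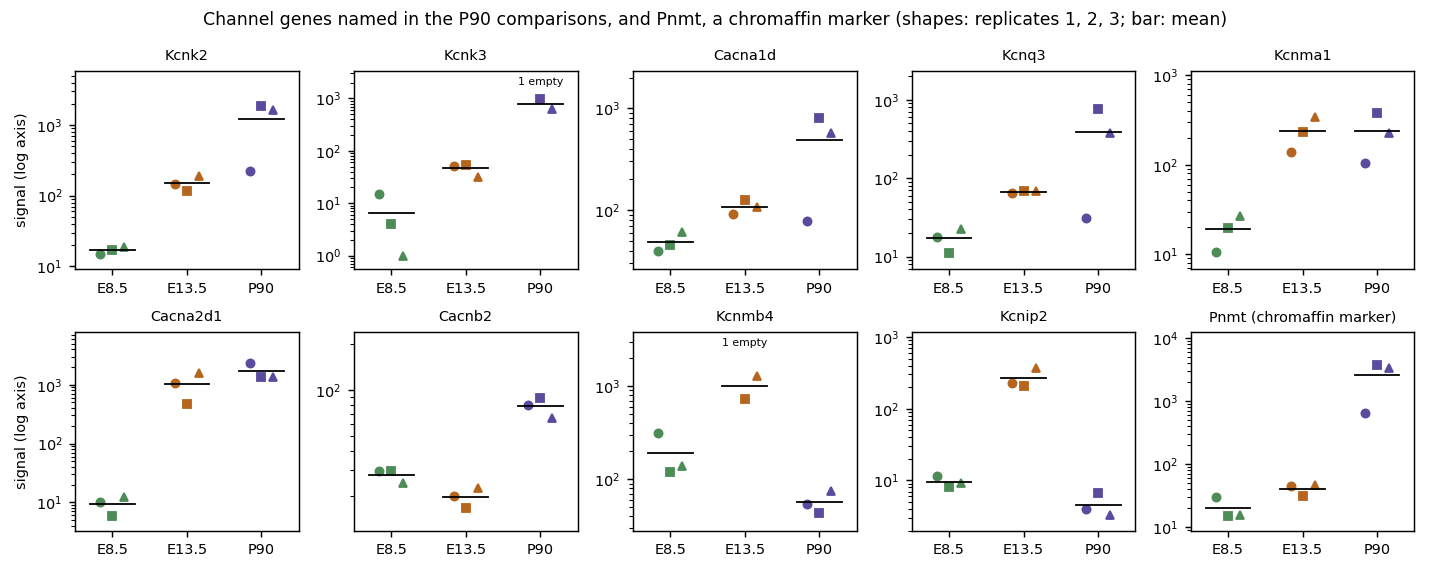
Signals (log axis) on each array of 9 channel genes named in the comparisons with P90 and of Pnmt. Circles, squares and triangles are replicates 1, 2 and 3, bars are arithmetic means, and empty values are counted above a stage. P90 replicate 1 (circle) lies far below replicates 2 and 3 for Kcnk2, Cacna1d, Kcnq3 and Pnmt, and with or above them for Cacna2d1 and Cacnb2.

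Of 10 tested inward rectifiers, Kcnj8 and Kcnj10 rose at E13.5, where 16.5% of all genes tested were called, 9.27% as rising. Kcnj8, the pore of the ATP-sensitive potassium channel of vessel walls, read 11.1, 5.52 and 8.03 at E8.5, 109, 85.1 and 65.9 at E13.5, and 134, 129 and 49.9 at P90. It rose by 2.07 ± 0.33 (adjusted p = 0.00147) and was 2.22 ± 0.33 above E8.5 at P90 (adjusted p = 0.000649), both kept under every alternative. Abcc9, the sulphonylurea receptor that pairs with it, read 9.67, 11.8 and 15.1, then 164, 89.3 and 111, then 514, 533 and 275, and was called as higher in each of the 3 comparisons (log2 2.25, 1.71 and 3.97; adjusted p = 0.000897, 0.00695 and 1.08e-05). Sums of 5 endothelial markers were 237 to 668 at E8.5, below the 798 to 1966 at E13.5 and the 743 to 4008 at P90. Sums of 4 smooth muscle markers overlapped between stages, at 663 to 1424, 1335 to 2932 and 899 to 2339. The part of vessel cells in these changes was not tested.

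Kcnj10, which clears potassium in satellite glia, read 79.7, 41.6 and 54.1 at E8.5, 558, 153 and 351 at E13.5, and 85.6, 382 and 210 at P90. It rose by 2.18 ± 0.54 (adjusted p = 0.0172) at E13.5, which was lost without replicate 2 or 3 of E8.5 or replicate 1 or 3 of E13.5 (adjusted p 0.0538 to 0.0827; 0.00526 to 0.0827 over all alternatives). Without P90 replicate 1, P90 stood 2.04 above E8.5 (adjusted p = 0.0116). The 3 glial markers without empty values (S100b, Mbp and Erbb3) summed to 294 to 551 at E8.5. Their sums were 5221, 1366 and 2366 on the E13.5 arrays and 159, 913 and 711 on the P90 arrays. Within both later stages this is the order of Kcnj10, but it is not particular to glia. Sensory neuron sums (6927, 4474 and 6469, then 512, 3213 and 2234) had the same order. So had chromaffin sums (4003, 1391 and 1828, then 12641, 26701 and 25699). The part of glia in the change was not tested. Kcnj11, the ATP-sensitive pore of endocrine and muscle cells, was not called and read 591 to 1393 over all 9 arrays. Kcnj3, a G-protein-gated rectifier, was not called by its brightest probe set, at 80.9 to 87.3, 39.5 to 132 and 44.3 to 113. With each probe set tested on its own it was called as higher at E13.5 (log2 2.12, adjusted p = 0.016; 0.016 to 0.908 over all alternatives), where that probe set ran from 1.61 to 3.86 at E8.5 to 32.7 to 107. Its partner Kcnj5 was not tested, with signals of at most 21.4.

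Hcn3, a pacemaker channel opened by hyperpolarisation, read 62.2, 70.4 and 140 at E8.5, 268, 285 and 369 at E13.5, and 135, 130 and 130 at P90. It rose by 1.66 ± 0.33 (adjusted p = 0.00546), a call kept under every alternative. Hcn2 was not tested, with signals of at most 35.7.

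Of 13 tested TRP channel genes, Trpv2 and Trpc1 rose at E13.5, a share near that of all genes tested (16.5% called, 9.27% rising). In each comparison with P90, Trpv2 alone was called. Trpv2, a calcium-permeable channel of large sensory neurons and of macrophages, read 11.4, 22.2 and 16.9 at E8.5, 373, 385 and 489 at E13.5, and 200, 147 and 162 at P90. It rose by 3.72 ± 0.28 (adjusted p = 3.31e-05), fell by 1.22 (adjusted p = 0.0188) and at P90 remained 2.51 ± 0.28 above E8.5 (adjusted p = 9.45e-05). The fall was lost without E13.5 replicate 3 or replicate 2 or 3 of P90 (adjusted p 0.0664 to 0.0952; 0.0114 to 0.1 over all alternatives), and both differences from E8.5 were kept under every alternative. The 3 macrophage markers with no empty value summed to 868 to 1472 at E8.5, 1717 to 1981 at E13.5 and 2228 to 3655 at P90, and their part was not tested. Trpc1, a widely expressed subunit of receptor-operated channels, rose from 24.8, 37.2 and 24.1 to 354, 75.4 and 211 (log2 2.16 ± 0.48, adjusted p = 0.00929) and read 34.9, 94.3 and 92.8 at P90.

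The TRP channels best known for sensing temperature and irritants were dim or empty. Trpv1, the capsaicin receptor, had 1 probe set, with no value at E13.5, which read 13 to 20 at E8.5 and 10.6 to 22.9 at P90. Trpm8, the menthol receptor, never exceeded 1.49. Trpa1, the mustard oil receptor, was tested and not called, at 36.5 to 61, 5.1 to 52.6 and 34.9 to 61.1, and Trpm5, a taste cell channel, at 15.8 to 21.3, 14.6 to 46.3 and 21.5 to 29.6. Trpm3, a heat sensor, was not called by its brightest probe set, but another of its probe sets read 13.1, 6.32 and 7.72 at E8.5, 288, 152 and 201 at E13.5, and 5.46, 6.68 and 3.45 at P90. That probe set was chosen after its values were seen, and it was called when each probe set was tested on its own.

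Empty values at E13.5 fell on many of these genes. In all, 12 channel probe sets of 8 genes (Cacna1b, Cacna1e, Cacng5, Kcnab2, Scn10a, Scn7a, Scn9a and Trpv1) had no value on any E13.5 array, 4.11% of channel probe sets against 0.624% of all probe sets with 1 symbol. None was empty on all arrays of E8.5 or of P90. On the same arrays the probe sets for Tubb3, Elavl4, Stmn2, Nefl, Nefm, Gap43, Pou4f1 and Ret, which mark neurons or sensory neurons, were empty as well, while those for Elavl3, Syt1, Mapt and Isl1 had signals of 1084 to 5244. Col1a1 and Col3a1, which mark mesenchyme, and Fabp7, which marks glia, were also empty on these arrays. An empty cell therefore gave no level, and it was not read as absence of the gene. Of the 41 untested genes, 28 never reached the filter level.

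Probe sets of 1 gene did not always move together. Among genes called at E13.5 against E8.5, 19 had another tested probe set, and all of these had the same sign in 15 and at least 1 was called the same way in 13. In the comparisons of P90 with E13.5 and with E8.5 the counts were 9, 8 and 6, and 8, 5 and 2. Tested on their own, other probe sets added 6 genes at E13.5 against E8.5, all higher: Kcna1, Kcnc1, Kcnj3, Kcnq5, Scn8a and Trpm3.

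Genes that work with these channels were read from a list of 44, of which 41 were on the array and 37 tested. At E13.5 against E8.5, 14 rose and 2 fell, where 16.5% of all genes tested were called (9.27% rising, 7.22% falling). From E13.5 to P90, 1 rose and 9 fell, where 9.48% of all genes were called (3.54% rising, 5.94% falling). At P90 against E8.5, 7 rose and 3 fell, a share near that over all genes (23.3% called, 10.9% rising, 12.5% falling). Contactins, which cluster channels on axons, changed most: Cntn1 rose by 5.31 (adjusted p = 0.00125), and Cntn2 rose by 5.17 (adjusted p = 7.69e-05) and fell by 5.22 (adjusted p = 7.39e-05). Dpp6, a partner of the Kcnd channels, rose by 4.19 (adjusted p = 0.000802), and its P90 arrays read 88.8, 689 and 480. Nalcn, a sodium leak channel, rose by 3.29 at E13.5 (adjusted p = 0.00714) and was 3.25 above E8.5 at P90 (adjusted p = 0.00574). Its partner Unc80 was called only at P90 against E8.5 (log2 3.03, adjusted p = 0.00515). The falls at E13.5 were in Mcoln3, a lysosomal channel of the TRP superfamily, by 2.36 (adjusted p = 0.00562), and in Rest, a repressor of neuronal genes, among them channel genes, by 1.64 (adjusted p = 0.0143). Rest read 1123, 1047 and 915 at E8.5, 355, 253 and 358 at E13.5, and 568, 296 and 235 at P90.

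Promoter sequences from RefSeq (assembly GRCm38.p6) were available for 109 of the 140 genes, as 148 windows of 250 bases before to 50 bases after a transcription start. The bases before the start are shown for the gene with the largest rise and the gene with the only fall at E13.5, and for those with the largest fall and the largest rise at P90, to set their base composition side by side. Capitals mark GC boxes (GGGCGG) and E boxes (CAGCTG) on either strand. They lie at chr2:66784911-66785160 (minus strand) for Scn7a, chr14:20181783-20182032 (minus) for Kcnk5, chr10:116473524-116473773 (minus) for Kcnmb4 and chr5:15934441-15934690 (plus) for Cacna2d1.
Scn7a: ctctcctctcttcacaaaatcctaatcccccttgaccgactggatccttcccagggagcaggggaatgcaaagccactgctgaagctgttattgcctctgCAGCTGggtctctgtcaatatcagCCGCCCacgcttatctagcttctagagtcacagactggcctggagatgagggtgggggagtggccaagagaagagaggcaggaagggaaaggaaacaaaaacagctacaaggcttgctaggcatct
Kcnk5: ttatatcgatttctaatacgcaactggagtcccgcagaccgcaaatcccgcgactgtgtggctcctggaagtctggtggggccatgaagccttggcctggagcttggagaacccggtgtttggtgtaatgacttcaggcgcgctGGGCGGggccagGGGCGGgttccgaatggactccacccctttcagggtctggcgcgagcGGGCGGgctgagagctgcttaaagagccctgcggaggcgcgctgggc
Kcnmb4: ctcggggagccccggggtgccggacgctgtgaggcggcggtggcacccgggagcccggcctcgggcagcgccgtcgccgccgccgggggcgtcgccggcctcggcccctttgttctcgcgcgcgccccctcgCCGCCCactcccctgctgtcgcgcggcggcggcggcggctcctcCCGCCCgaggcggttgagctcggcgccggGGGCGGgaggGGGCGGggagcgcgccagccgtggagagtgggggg
Cacna2d1: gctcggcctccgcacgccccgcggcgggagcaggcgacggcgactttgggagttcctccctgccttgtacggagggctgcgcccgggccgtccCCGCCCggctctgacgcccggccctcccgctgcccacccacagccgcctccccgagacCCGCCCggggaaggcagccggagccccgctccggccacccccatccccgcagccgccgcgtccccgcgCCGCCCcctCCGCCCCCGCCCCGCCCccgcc

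The whole windows held 3 CpG sites for Scn7a, 26 for Kcnk5, 48 for Kcnmb4 and 42 for Cacna2d1, where the median window of the channel genes held 9 and that of all 32851 windows held 7. The 43 windows of genes that rose at E13.5 had a median of 18. GC boxes occurred in 41.9% of channel windows, 51.2% of windows of genes that rose at E13.5 and 35.7% of all windows. The E box was found in 28.4%, 27.9% and 16.3%, and TATAAA in 7.43%, 4.65% and 13.6%. Neither a core part of the element that Rest binds (TTCAGCACC, in 0.371% of all windows) nor the cAMP response element (TGACGTCA, in 1.79%) was found in any of the 148 windows, which says only that these letters are not in these windows. Windows of 1 gene can overlap, and these shares are descriptions of sequence.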

How the data were processed

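Cells of 9 samples were captured by laser microdissection, a PicoPure kit yielded their RNA, and 400 ng of total RNA gave biotin-labelled cRNA for 1 Affymetrix array each, per the labels' protocols. In the deposited table each probe set has an intensity for every array, linear and at least 1. In the submitters' processing notes stand GCOS, GCRMA, MAS5 and RMA, with no roles. Which of them made the table, its scaling, and why cells are empty are not given in the sources used here. Median signals were 38.3 to 48.2 per array, and log2 signals correlated at 0.834 to 0.985 between arrays of a stage. Few arrays limit precision.

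Probe sets with exactly 1 gene symbol in the platform annotation were used (34945 of 45101); 2 probe sets with several symbols, 1 of which fits the rule, were left out. Signals were analysed as log2(signal + 16) with no further scaling, which understates changes of dim genes. A probe set was kept if at least 3 arrays exceeded a signal of 26.06, the 40th percentile over the table, and it had at least 2 values per stage. The brightest probe set stood for its gene. All 13748 genes and 9 arrays entered 1 limma fit (version 3.58.1, R 4.3.3; lmFit, eBayes with a trend, two-sided, 6 residual degrees of freedom), with Benjamini-Hochberg adjustment over all genes and calls at an adjusted p under 0.05. An empty value was left out of its gene's fit. The scripts were checked on simulated data. Numbers after ± are SE for log2 changes and SD for signals.

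The channel genes, marker and partner lists were chosen with earlier results of these data known, and so were the rules for named genes. These named the 12 largest rises and 8 largest falls per comparison, the most changed gene of each family and a list of check genes. Some of the check genes are not reported here. Genes named beyond the rules (Kcna4, Kcnh8, Kcnd2, Kcnq5, Kcnn1, Kcnn4, Kcnt1, Kcnt2, Kcnk10, Cacna1f, Cacna1g, Cacna2d3, Cacnb1, Cacnb4, Scn2b, Scn4b and Trpm3) were chosen after their values were seen. Same-numbered arrays of different stages did not deviate together (correlations of -0.367 to 0.385), so replicate numbers were not used as pairs. Alternatives were quantile normalization, pseudocounts of 1 and 64, no filter and a 60th percentile filter, other choices of probe set, no variance trend, a fit of only the stages compared, a replicate block, only genes with no empty value, and leaving out each array.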

Additional observations from a re-analysis of the deposited data

How the results depend on the processing

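The count of channel genes called at E13.5 against E8.5 was 39, and ranged from 22 to 42 when 1 array was left out. For P90 against E13.5 it was 21, 12 with only the stages compared in the fit, and 6 to 27 with 1 array left out. For P90 against E8.5 it was 21, and 12 to 27 with 1 array left out. The other alternatives kept these counts within 1.5 times, and 24 of 39, 8 of 21 and 12 of 21 calls were kept under every alternative that gave a value. With the replicate number as a block the counts were 39, 21 and 23, but the numbers do not pair the arrays. Over all genes tested, calls ranged from 1273 to 2822, 583 to 1703 and 1955 to 3888 with 1 array left out, in the same order of comparisons.

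Directions turned in 8 gene comparisons, mostly because another probe set of the gene took over. Quantile normalization gave Kcnc1 -0.01 at E13.5, and leaving out 1 array -0.14 to 0.22. Kcnj3 at E13.5 gave 2.12 with each probe set on its own, 0.76 as a mean of probe sets, and -0.61 to 0.09 with 1 array left out. Kcnma1 at P90 against E13.5 gave 3.06 and 1.17 under those probe set rules, and -0.49 to 0.36 with 1 array left out. Cacna2d2 gave -0.60 at P90 against E8.5 with each probe set on its own, and with 1 array left out -0.60 to 3.46 there and -0.19 to 5.10 at E13.5. Kcna2 at P90 against E13.5 gave 0.33 with only genes without empty values, and -2.17 to 0.27 with 1 array left out. Scn7a at P90 against E8.5 gave -0.71 with only such genes, and -0.71 to 3.12 with 1 array left out. Cacna1c at P90 against E13.5 gave -1.25 to 0.49 with 1 array left out. The 0.49 came without P90 replicate 3, where another Cacna1c probe set took over. For Kcnc1, the cause was not tested.

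Settings other than left-out arrays also ended calls, and only examples are given here. A pseudocount of 64 ended those of Kcnk2 (adjusted p = 0.135) and Kcnk3 (adjusted p = 0.0666) at E13.5. Quantile normalization ended those of Scn3b (adjusted p = 0.0982) and Kcnmb2 (adjusted p = 0.119) at P90 against E13.5. A mean of probe sets ended those of Cacna2d2 (adjusted p = 0.143) and Cacna1c (adjusted p = 0.132) at E13.5. The range over all alternatives stands beside each of these genes in the results.

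Dim genes and genes with empty cells limit what could be seen: 41 of 140 genes were not tested, among them Scn9a, Scn10a and Trpv1.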
